A study of Mus musculus with 12 samples.

Results

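The 9 genes for the subunits of AMPA and kainate receptors were *Gria1* to *Gria4* and *Grik1* to *Grik5*, taken by symbol from the 55418 genes of a count table of mouse brainstem RNA, in which 9 of the 9 were found. The brainstem (medulla and pons) came from 12 outbred CFW mice at P15, with 1 poly-A library per mouse, and each treatment, saline or morphine, was given to 3 females and 3 males. The agent of the morphine mice was morphine at 15 mg/kg under the skin, given 2 times daily from P1 to P14, that of the control mice was saline on the same days, and all 12 were killed 16 h after the last injection, when the morphine mice were in spontaneous withdrawal. CFW mice are outbred, so the mice of a group differ in genotype, and no label names the dam of a mouse.

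AMPA receptors and kainate receptors are tetrameric channels opened by glutamate. AMPA receptors carry most fast excitatory transmission, and the GluA2 subunit from *Gria2* makes the channel nearly impermeable to calcium once its transcript has been edited at the pore. Among the kainate receptor genes, *Grik1* to *Grik3* encode the low-affinity subunits GluK1 to GluK3, which can form channels of their own, and *Grik4* and *Grik5* encode the high-affinity subunits GluK4 and GluK5, which need a low-affinity partner. In the brainstem these receptors pass excitatory drive through the respiratory, cardiovascular, and arousal networks, and noradrenergic neurons of the locus coeruleus receive glutamatergic input that is known to be raised during opioid withdrawal.

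The proteins are close relatives, but their transcripts differ widely in base composition. In translations of the annotated coding sequences, the AMPA subunits shared between 68.2% and 73.1% of aligned residues with each other, GluK1 to GluK3 shared between 72.9% and 79.4%, and GluK4 and GluK5 shared 70.6%. An AMPA and a kainate subunit shared between 37.0% and 43.4%. The longest stretch that is the same in all 9 proteins has 19 residues and is encoded by 57 bases that lie within 1 exon of each gene. These windows show how the same residues are spelled with different amounts of G and C. They are given 5′ to 3′ on the coding strand from GENCODE M21 on GRCm38, with capitals for a G or C at the last position of a codon:
*Gria2* (chr3:80702560-80702616, minus strand, exon 12 of 16): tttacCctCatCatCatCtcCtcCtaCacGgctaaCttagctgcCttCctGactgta
*Grik2* (chr10:49240681-49240737, minus strand, exon 14 of 17): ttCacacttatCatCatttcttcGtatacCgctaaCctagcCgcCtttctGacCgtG
*Gria4* (chr9:4462008-4462064, minus strand, exon 13 of 17): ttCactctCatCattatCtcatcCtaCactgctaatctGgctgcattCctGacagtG
*Gria1* (chr11:57283550-57283606, plus strand, exon 12 of 16): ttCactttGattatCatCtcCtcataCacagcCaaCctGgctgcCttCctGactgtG
*Grik3* (chr4:125694021-125694077, plus strand, exon 13 of 16): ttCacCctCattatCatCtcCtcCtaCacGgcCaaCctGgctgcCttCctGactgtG
*Grik5* (chr7:25015910-25015966, minus strand, exon 16 of 20): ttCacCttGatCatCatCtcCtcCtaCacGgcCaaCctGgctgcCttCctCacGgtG
Of the 19 last positions, 10 were G or C in *Gria4*, 11 in *Grik2*, 13 in *Gria1* and in *Gria2*, 16 in *Grik3*, and 18 in *Grik5*. Over the whole coding sequence the share of G and C was lowest in *Gria2* (44.7%) and highest in *Grik5* (61.66%).

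Over the longest protein-coding transcript, with its untranslated ends, GC content was 36.8% for *Gria2*, 37.9% for *Grik2*, 43.0% for *Gria3*, 44.3% for *Gria4*, 47.9% for *Grik1*, 48.5% for *Gria1*, 52.2% for *Grik4*, 54.2% for *Grik3*, and 62.3% for *Grik5*. The median of the 18608 genes tested in both sexes together was 49.5%. The members thus reached from the percentile 1.78 of the tested genes (*Gria2*) to the percentile 98.6 (*Grik5*). On GRCm38, *Gria2* (ENSMUSG00000033981) lies on chromosome 3 from 80681450 to 80802835, *Gria4* (ENSMUSG00000025892) on chromosome 9 from 4417896 to 4796234, and *Grik5* (ENSMUSG00000003378) on chromosome 7 from 25009849 to 25072346. *Gria3* (ENSMUSG00000001986), from 41400854 to 41678601, is the member on the X chromosome.

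The libraries held between 27850565 and 48097947 counts on genes, and the members held between 474 and 15337 of them in any library. All 9 members passed the filter on low counts in every comparison. The labels give brainstem as the tissue, while the deposited extraction text names spinal cords. The Hox genes of the spinal cord below the brainstem (*Hoxc8*, *Hoxc9*, *Hoxc10*, *Hoxd10*, *Hoxa10*) summed to at most 0.123 CPM (counts scaled to 1000000 per library) in any library, and the 8 brainstem markers were all present in every library, with a sum between 580.6 and 761.5 CPM. The library labelled morphine male 6 had 379.9 CPM of *Xist* against at most 2.71 CPM in the other males, and its Y-linked *Ddx3y*, at 12.8 CPM, lay below the lowest of the other males, 117.8 CPM. Its *Xist* lay below the lowest female, 546.8 CPM, and its *Ddx3y* above the highest female, 0.729 CPM. The library thus matched neither sex in these genes, and the cause was not tested. It stayed in its labelled group, and for the males the calls among members and partners are given with and without it.

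Levels were compared between members per length, as RPKM, the CPM divided by the length of the union of annotated exons in kilobases. *Gria4*, which encodes GluA4, was the highest of the 9, with 44.0 ± 5.06 RPKM (SD, n = 12) and between 36.2 and 55.3 RPKM in single mice. Its mean log2 ratio to *Gria2*, the next gene in the order, was 1.01 ± 0.19 (SD, n = 12), and it was higher in 12 of 12 mice (exact two-sided sign-flip permutation test within mice, p = 0.000488, the smallest that 12 mice allow, and 0.000977 after Benjamini-Hochberg adjustment over 8 neighbouring pairs). The order, and so the pairs, came from these same values, and each ratio holds the fixed lengths of its 2 genes. The p values of these pairs therefore describe how steady a ratio was over the mice, and they are no independent test of the order. *Gria2* had 22.1 ± 4.48 RPKM and *Gria1* had 21.6 ± 1.37 RPKM (SD, n = 12), and these neighbours did not differ beyond their spread, with *Gria2* higher in 7 of 12 mice (exact permutation p = 0.911, adjusted 0.911). *Gria3* followed with 14.05 ± 1.92 RPKM and was lower than *Gria1* in 12 of 12 mice (exact permutation p = 0.000488, adjusted 0.000977).

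The kainate receptor genes lay below the AMPA receptor genes. *Gria3*, the lowest AMPA receptor gene, was above *Grik3*, the highest kainate receptor gene, in 12 of 12 mice, with 8.32 ± 1.16 RPKM for *Grik3* (SD, n = 12; exact permutation p = 0.000488, adjusted 0.000977). *Grik5* had 6.85 ± 3.59 RPKM, *Grik2* had 6.35 ± 0.872 RPKM, *Grik1* had 5.16 ± 0.544 RPKM, and *Grik4* was the lowest with 3.58 ± 0.645 RPKM. *Grik5* and *Grik2* did not differ beyond their spread (*Grik5* higher in 4 of 12 mice, exact permutation p = 0.911, adjusted 0.911), while *Grik3* was above *Grik5* in 10 of 12 mice (adjusted exact permutation p = 0.0254), *Grik2* above *Grik1* in 12 of 12 (0.000977), and *Grik1* above *Grik4* in 11 of 12 (0.00156).

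Part of this order depended on which length a gene was given. Divided by the longest annotated transcript, *Gria2* had 33.2 ± 6.72 RPKM and *Gria3* had 26.6 ± 3.64 RPKM (SD, n = 12). *Gria2* was then above *Gria1* in 12 of 12 mice, and *Gria1* was above *Gria3* in 1 of 12. The places of *Gria4* at the top and *Grik4* at the bottom were the same under both lengths, and each AMPA receptor gene stayed above each kainate receptor gene in its mean. Among the kainate receptor genes the order under the longest transcript was *Grik1*, *Grik2*, *Grik5*, *Grik3*, and *Grik4*, and there *Grik1* and *Grik2*, *Grik2* and *Grik5*, and *Grik5* and *Grik3* did not differ in the adjusted tests (exact permutation p = 0.0586, 0.568, and 0.638).

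**Figure D1:**
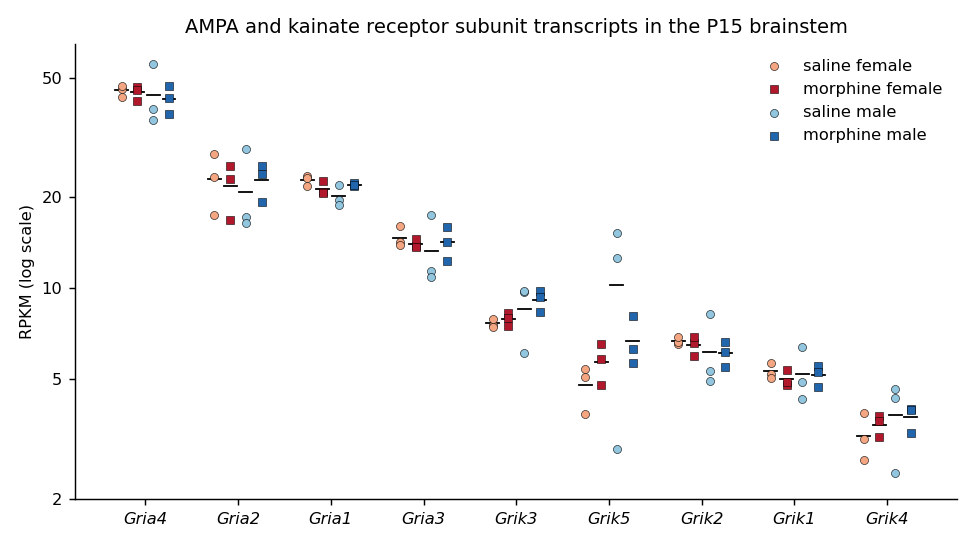
RPKM on a log scale (y axis) of the 9 members (x axis, by falling mean), with 1 point per mouse, the 4 groups by colour, and a bar for the mean of each group. *Gria4* sits between 36.2 and 55.3 RPKM, above the other genes, and *Grik5* has the widest spread, from 2.92 to 15.2 RPKM, set by the 3 saline males.

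Summed per length, AMPA receptor transcripts were 3.45 ± 0.750 times as abundant as kainate receptor transcripts (SD, n = 12). The ratio was 2.39 in saline male 1, 2.10 in saline male 2, and 4.75 in saline male 3, so the lowest and the highest of the 12 values came from the same group. In saline females it was between 3.45 and 4.39, in morphine females between 3.36 and 3.84, and in morphine males between 2.89 and 3.79. Within the AMPA receptor genes, *Gria4* gave between 41.1% and 44.96% of the summed RPKM and *Gria2* between 17.7% and 24.5%. These shares depended on the length used, here the union of exons. Divided by the longest transcript, *Gria4* gave between 35.8% and 39.9% and *Gria2* between 20.3% and 27.6%. Within the kainate receptor genes, with the union of exons, *Grik5* gave between 11.2% and 38.9%, with both ends again in saline males. In bulk tissue, fewer cells of a type and less RNA per cell cannot be told apart in such values.

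In some libraries, but not in all, the members' deviations followed their GC content. For each library, the deviation of log2 CPM from the mean of the 12 libraries was correlated with GC content across 18586 genes, as a description, since genes of a library share its preparation and are not independent. The Spearman correlation was 0.75 in saline male 2, 0.65 in saline male 1, and 0.60 in the one labelled morphine male 6. It was -0.75 in saline male 3, -0.61 in saline female 6, and between -0.43 and 0.11 in the other libraries. Across the 9 members alone the same correlation was 0.95, 0.90, and 0.85 in the first 3 of these libraries and -0.97 and -0.92 in saline male 3 and saline female 6. In the others it lay between -0.92 (morphine male 5) and 0.32 (morphine male 4). It was near 0 in morphine female 1 (-0.02) and saline female 4 (0.03). Across all genes the correlation with exon length lay between -0.21 (morphine female 3) and 0.16 (morphine male 5). The 82 genes of cytosolic ribosomal proteins were above their mean by 0.53 and 0.60 (log2) in saline males 2 and 1 and below it, at -0.46, in saline male 3 and in saline female 6. What part of the members' spread came from the preparation of the libraries, from the tissue, or from the mice was not tested.

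*Grik5*, the most GC-rich member, had 65.2, 78.6, and 15.1 CPM in saline males 1, 2, and 3, after scaling by the trimmed mean of M values (TMM). It had 27.9, 26.2, and 19.8 CPM in saline females 4, 5, and 6, 33.8, 24.6, and 30.1 CPM in morphine females 1, 2, and 3, and 32.6 and 29.1 CPM in morphine males 4 and 5. The library labelled morphine male 6 had 41.8 CPM. The saline males thus held both the highest and the lowest of the 12 levels, which differed 5.20-fold. The SD of its log2 CPM over the 12 mice was 0.65, at percentile 92.2 of the tested genes, whose median SD was 0.27.

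*Gria2*, the most AT-rich member, ran the other way. It had 267.3, 255.7, and 449.1 CPM in saline males 1, 2, and 3, and 272.0, 364.0, and 434.2 CPM in saline females 4, 5, and 6. Morphine females 1, 2, and 3 had 357.9, 395.4, and 261.9 CPM, morphine males 4 and 5 had 372.2 and 396.8 CPM, and the library labelled morphine male 6 had 301.1 CPM. Its highest level was in saline male 3, where *Grik5* was lowest, and its lowest in saline male 2, where *Grik5* was highest. *Gria2* was also low in saline female 4 and morphine female 3, where the all-gene correlation with GC content was 0.03 and 0.11.

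*Gria3*, *Gria4*, and *Grik2*, which are also below the median GC content, were likewise highest in saline male 3 and lowest in saline male 2. *Gria4*, for example, had 248.4, 228.2, and 348.4 CPM in saline males 1, 2, and 3 and between 238.2 and 295.6 CPM in the other 9 mice. *Grik3* and *Grik4*, above the median, were lowest in saline male 3, where *Grik3* had 54.6 CPM against 87.4 and 87.9 CPM in saline males 1 and 2. *Gria1*, whose GC content of 48.5% is near the median, varied least, between 114.0 and 141.9 CPM, and its SD of 0.10 (log2) was at percentile 4.93 of the tested genes.

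**Figure D2:**
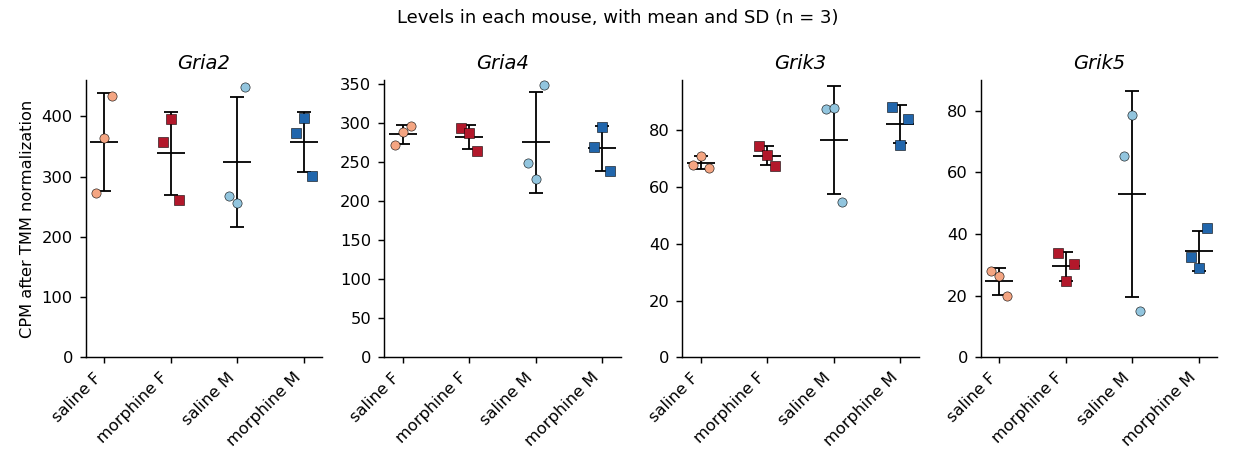
CPM after TMM normalization (y axis, from 0) of *Gria2*, *Gria4*, *Grik3*, and *Grik5* in each mouse of the 4 groups (x axis, F for females and M for males), with the mean and the SD of 3 mice. In each panel the saline males are split into 1 mouse and the other 2, with saline male 3 at the top for *Gria2* and *Gria4* and at the bottom for *Grik3* and *Grik5*.

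With loess offsets for GC content and exon length in each library, the spread of the members over the 12 libraries fell, and it fell unequally. The SD of log2 CPM went from 0.65 to 0.15 for *Grik5*, from 0.31 to 0.093 for *Gria2*, from 0.21 to 0.073 for *Gria3*, from 0.17 to 0.051 for *Gria4*, from 0.20 to 0.068 for *Grik3*, and from 0.21 to 0.10 for *Grik2*. It fell less for *Grik4*, from 0.26 to 0.18, for *Grik1*, from 0.15 to 0.12, and for *Gria1*, from 0.10 to 0.083. For all genes the median went from 0.27 to 0.20. Such offsets remove whatever moves with GC content or length, whether it arose in the preparation or in the mice.

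**Figure D3:**
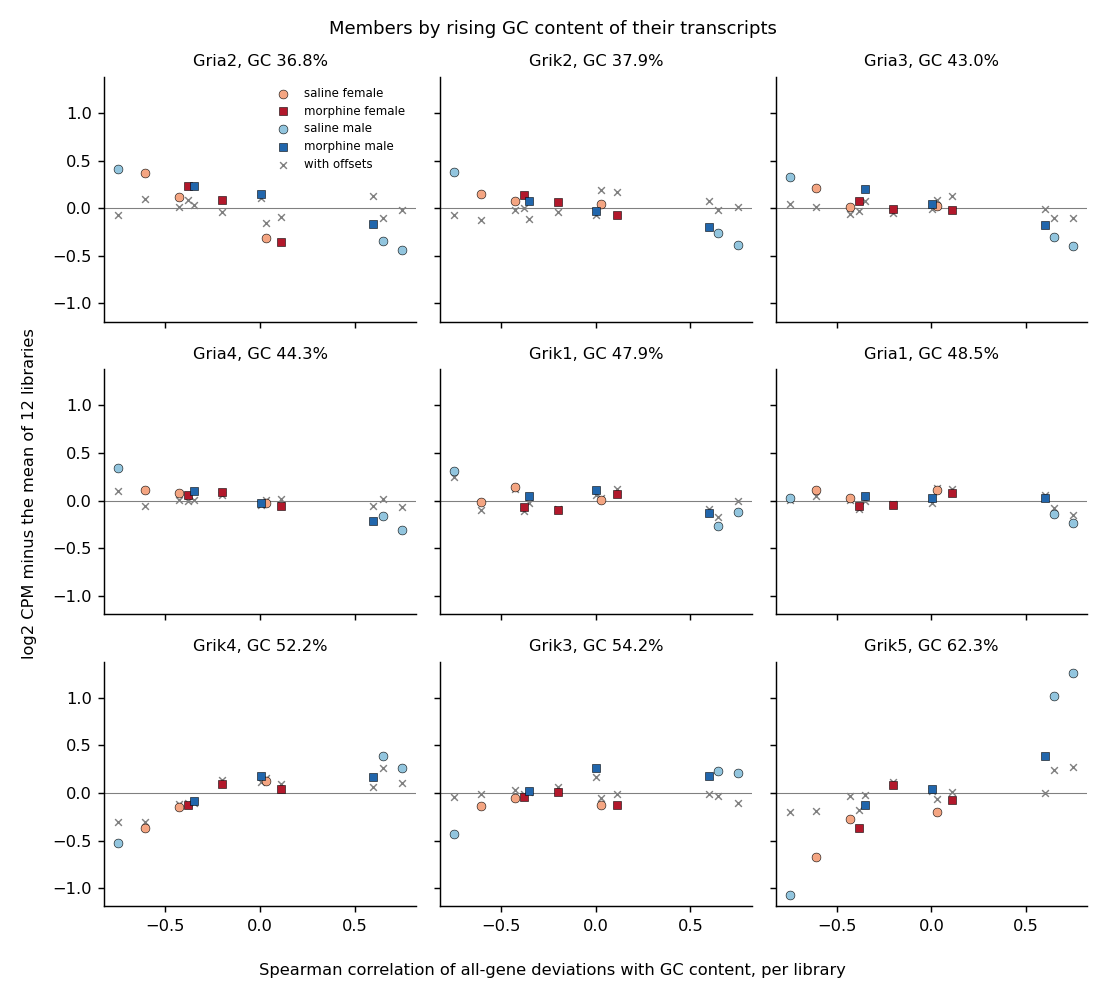
log2 CPM of each member minus its mean over 12 libraries (y axis) against the Spearman correlation of all-gene deviations with GC content in that library (x axis), in panels ordered by the member's GC content, with crosses for the values after the offsets. Points fall from left to right for *Gria2*, *Grik2*, *Gria3*, and *Gria4*, and rise for *Grik4*, *Grik3*, and *Grik5*. The crosses lie between -0.31 and 0.27 and still rise for *Grik4*, which is at -0.31 in saline male 3 and in saline female 6 and at 0.27 in saline male 1, and for *Grik5*, which is at -0.20 in saline male 3 and at 0.27 in saline male 2.

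The first comparison asked which transcripts differed between morphine and saline mice of both sexes together. A gene was called at the thresholds of the study, that is log2 fold change past 0.26 in either direction and unadjusted p below 0.05, here with the quasi-likelihood (QL) test of edgeR with sex as a covariate. By this rule 0 of the 9 members were called, where 1.19% of the 18608 tested genes were (221 genes), and 0 had an unadjusted p under 0.05. The fold change of a member lay between -0.17 for *Grik5* (SE 0.31) and 0.09 for *Grik3* (SE 0.11) on the log2 scale. The median was 0.02 over the members and -0.02 over all tested genes, with 5 members higher and 4 lower in morphine mice.

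The design bounded some members more tightly than others. *Gria1* had 131.2 ± 4.86 CPM in morphine mice and 129.995 ± 11.3 CPM in saline mice (SD, n = 6), a log2 fold change of 0.03 with a 95% interval from -0.13 to 0.18. For *Gria4*, with 274.5 ± 21.8 and 280.3 ± 41.8 CPM (SD, n = 6), the interval ran from -0.24 to 0.20, for *Grik1* from -0.26 to 0.19, and for *Grik2* from -0.28 to 0.23. The interval of *Gria2* ran from -0.33 to 0.40 and that of *Grik5* from -0.84 to 0.50. The groups of 6 mice overlapped for 9 of the 9 members, and 0.043% of the tested genes did not overlap. Adjusted p values of the members were all 1.00 in the edgeR QL test.

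In females, 0 of the 9 members were called, where 1.81% of 18109 genes were (328 genes), and 0 had an unadjusted p under 0.05 in the edgeR QL test. The AMPA receptor genes had small negative log2 fold changes in 4 of 4 cases, from -0.10 for *Gria1* (SE 0.09) to -0.03 for *Gria4* (SE 0.09). With the offsets for GC content and length, *Gria2* and *Gria3* were at 0.00 and *Gria4* was at 0.04 (SE 0.08), so the shared sign was not held. *Gria2* had 338.4 ± 68.8 CPM in morphine females and 356.7 ± 81.3 CPM in saline females (SD, n = 3), with an interval from -0.51 to 0.34 (log2). The widest difference was that of *Grik5*, with 29.5 ± 4.60 CPM in morphine females and 24.6 ± 4.26 CPM in saline females (SD, n = 3). Its log2 fold change was 0.26 (SE 0.15, interval -0.08 to 0.59), just under the fold-change threshold, and the groups overlapped. Without morphine female 2 it was 0.37 and was called, in a fit that called 3.73% of all genes, and with the offsets for GC content it was 0.09 (SE 0.10). Of the 9 members 0 were without overlap between groups in females, where 5.65% of genes were.

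In males, 0 of the 9 members were called, where 2.99% of 18166 genes were (543 genes), and 0 had an unadjusted p under 0.05 in the edgeR QL test. *Grik5* had 34.5 ± 6.55 CPM in morphine males and 53.0 ± 33.5 CPM in saline males (SD, n = 3), and its log2 fold change was -0.62 (SE 0.53, interval -1.87 to 0.64). The morphine males lay wholly within the range of the saline males. *Gria2* had 356.7 ± 49.7 CPM in morphine males and 324.0 ± 108.4 CPM in saline males (SD, n = 3), and its log2 fold change was 0.12 (SE 0.25, interval -0.47 to 0.72). The other members lay between -0.05 for *Gria4* (SE 0.19) and 0.12 for *Gria1* (SE 0.12). Of the members 0 were without overlap between groups, where 9.1% of genes were. Total counts as the scale, rather than TMM, moved the median of all genes in males from -0.06 to 0.06 (log2), and it made *Gria4*, *Grik1*, *Grik2*, and *Grik4* positive. Relative to the median of all genes, *Grik5* was at -0.55 with TMM and at -0.56 with total counts, and *Gria2* was at 0.19 with both.

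**Figure D4:**
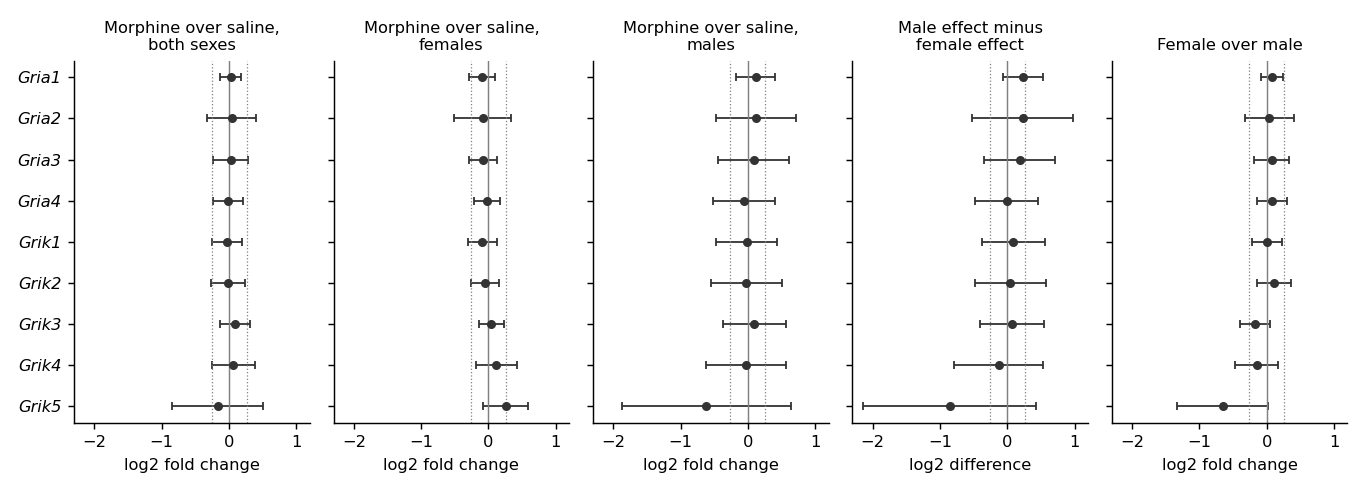
log2 fold change with its 95% interval in the edgeR QL test (x axis) for the 9 members (y axis) in the 5 comparisons, with dotted lines at the threshold of 0.26 on either side. Each of the intervals crosses 0, and that of *Grik5* is the widest in each panel but that of the females, where the interval of *Gria2* is wider.

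The result in males depended on saline male 3. Without this mouse, 4 of the 9 members were called, where 28.6% of 18652 genes were (5341 genes). *Grik5* was then lower in morphine males by a log2 fold change of -1.02 (SE 0.17), with an adjusted p of 0.0128 in the edgeR QL test, and *Gria2*, *Gria3*, and *Grik2* were higher by 0.48 (SE 0.11, adjusted p = 0.0335), 0.38 (SE 0.11, adjusted p = 0.0652), and 0.28 (SE 0.11, adjusted p = 0.121), the last of them from -0.03 (SE 0.22) with all 6 males. The 3 that were higher are below the median in GC content and *Grik5* is above it. The saline males left in this fit were the 2 libraries with the highest correlation of deviation with GC content, 0.65 and 0.75, and their part in the calls was not tested. With the offsets for GC content and length in all 6 males, *Grik5* had a log2 fold change of -0.12 (SE 0.12) and *Gria2* had 0.15 (SE 0.06, unadjusted p = 0.0426, adjusted p = 0.471 in the edgeR QL test), which is below the fold-change threshold. With both the offsets and saline male 3 left out, *Grik5* was at -0.25 (SE 0.07, adjusted p = 0.0422 in the edgeR QL test) and *Gria2* at 0.15 (SE 0.06), again below the fold-change threshold. That fit called 3498 of the 18652 genes.

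Without the library labelled morphine male 6, 0 of the 9 members were called in males. *Grik5* was at -0.79 (SE 0.64) and *Gria2* at 0.23 (SE 0.29) on the log2 scale.

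**Figure D5:**
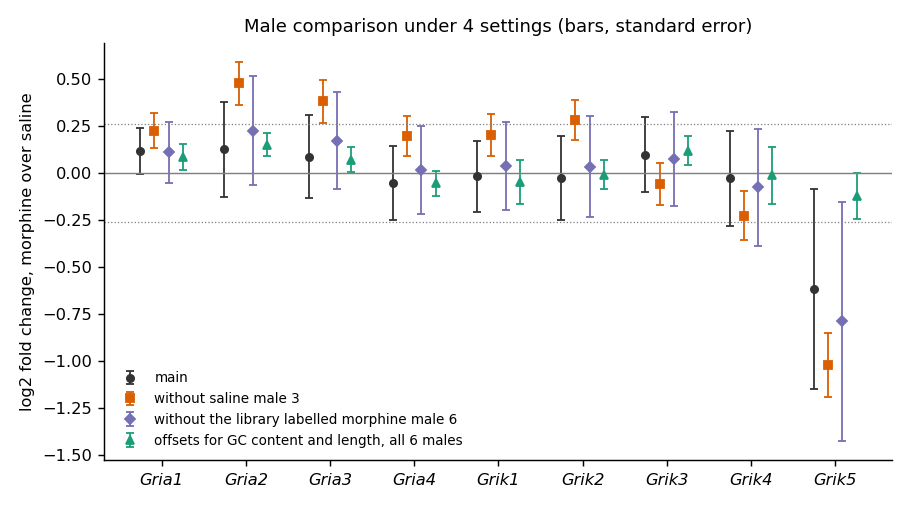
log2 fold change of morphine over saline males with its standard error (y axis) for the 9 members (x axis) under 4 settings, with dotted lines at the threshold of 0.26 on either side. Leaving out saline male 3 takes *Gria2*, *Gria3*, and *Grik2* above and *Grik5* below these lines, and with offsets for GC content and length the 9 values lie between -0.12 and 0.15.

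The interaction of treatment and sex, the male effect minus the female effect, was called for 0 of the 9 members, where it was called for 2.94% of 19027 genes (559 genes). It was -0.86 for *Grik5* (SE 0.59, interval -2.15 to 0.43), 0.23 for *Gria1* (SE 0.14, interval -0.07 to 0.53), and 0.23 for *Gria2* (SE 0.34, interval -0.52 to 0.98) on the log2 scale. The smallest adjusted p of a member was 0.985 in the edgeR QL test. Scaling by total counts brought *Gria1* to 0.33 and to a call, although relative to the median of all genes its value was 0.27 with either scaling. Without saline male 3, *Gria1* (0.29), *Gria3* (0.42), *Grik2* (0.30), and *Grik5* (-1.32) were called, where 24.1% of all genes were. Without the library labelled morphine male 6, 0 members were called, and *Grik5* was at -1.02 (SE 0.65). With the offsets the value for *Grik5* was -0.21 (SE 0.17) and for *Gria1* 0.14 (SE 0.11).

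Females and males, with treatment as a covariate, did not differ in a called way for any of the 9 members, where 3.94% of 18608 genes were called (733 genes). *Grik5* came closest, with 27.1 ± 4.78 CPM in females and 43.7 ± 23.8 CPM in males (SD, n = 6). Its log2 fold change of females over males was -0.65 (SE 0.31, interval -1.33 to 0.02), with an adjusted p of 0.734 in the edgeR QL test. The fold change passed both thresholds with the Wald test of DESeq2 (-0.66), and also without saline male 3, where *Grik3* (-0.29) and *Grik4* (-0.27) were called with it and 20.9% of all genes were. Without the library labelled morphine male 6, *Grik5* was at -0.64 (SE 0.35, unadjusted p = 0.0908 and adjusted p = 0.967 in the edgeR QL test), 0 members were called, and the calls over all genes fell from 733 to 458. With the offsets for GC content and length, *Grik5* was at -0.12 (SE 0.09, unadjusted p = 0.193 in the edgeR QL test), and *Grik3* was at 0.00 and the sign of its difference was not held. The 4 AMPA receptor genes lay between 0.04 for *Gria2* (SE 0.17) and 0.08 for *Gria1* (SE 0.07).

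Of the genes that assemble, tether, or tune these receptors, 40 were examined, and 40 passed the filter on low counts. They were 12 auxiliary subunits of AMPA receptors, 6 assembly factors, 4 auxiliary proteins of kainate receptors, 10 scaffold and trafficking genes, 3 pentraxins, 3 genes of RNA editing enzymes, and 2 delta receptor genes. In both sexes together 0 of the 40 were called, with 20 higher and 20 lower in morphine mice and a median log2 fold change of 0.00, and the smallest unadjusted p was that of *Shisa7* (log2 fold change 0.17, SE 0.10, adjusted p = 1.00 in the edgeR QL test). In males 0 of the 40 were called, with a median of -0.07 against -0.06 for all genes, and 0 of the 40 were called without the library labelled morphine male 6. Without saline male 3, as for the members, this was not held, and 17 of the 40 were called in males (5 higher and 12 lower, where 28.6% of all genes were called), 13 in the interaction (24.1% of all genes), and 12 in the difference of the sexes (20.9% of all genes). *Shisa7*, listed here among the auxiliary subunits of AMPA receptors, again had the smallest p, with 34.5 ± 0.867 CPM in morphine males and 27.8 ± 1.77 CPM in saline males (SD, n = 3). These groups did not overlap, where 9.1% of all genes in males did not. The log2 fold change was 0.30 (SE 0.13, interval -0.01 to 0.62, unadjusted p = 0.0553 and adjusted p = 1.00 in the edgeR QL test). It lay close to the threshold and was called with the Wald test of DESeq2 (0.32), DESeq2's size factors (0.32), total counts (0.43), at least 10 counts in every library (0.31), and the fit of 12 mice (0.33), with adjusted p between 0.935 and 1.00 in these fits. It was also called without saline male 3 (0.38, adjusted p = 0.0541 in the edgeR QL test). With the offsets it was 0.27 (SE 0.29) and not called, and with the offsets and without saline male 3 it was 0.74 (SE 0.09, adjusted p = 0.00265 in the edgeR QL test). The last of these fits called 3498 of 18652 genes.

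In females 2 of the 40 were called (5.00%, against 1.81% of all genes), and both were auxiliary subunits of AMPA receptors and higher in morphine females. *Cnih2*, which encodes the cornichon CNIH2 that slows AMPA receptor deactivation and aids export, had 16.97, 13.7, and 19.4 CPM in morphine females 1, 2, and 3 and 14.5, 12.9, and 9.45 CPM in saline females 4, 5, and 6. The groups overlapped, and the log2 fold change was 0.44 (SE 0.17). *Cacng8*, which encodes the TARP γ8, had 4.73, 3.31, and 3.89 CPM in morphine females 1, 2, and 3 and 2.71, 2.67, and 3.23 CPM in saline females 4, 5, and 6, with a log2 fold change of 0.46 (SE 0.20). The groups of *Cacng8* did not overlap, where 5.65% of all genes in females did not. The adjusted p of both was 1.00 in the edgeR QL test.

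Without saline female 5, morphine female 1, or morphine female 3, neither gene was called, and *Cnih2* was not called without saline female 6 or *Cacng8* without saline female 4. In the contrast from the fit of 12 mice neither was called, at log2 fold changes of 0.45 for *Cnih2* and 0.47 for *Cacng8*. *Cacng8* was also not called with the Wald test of DESeq2, with exactTest, with no filter, or with at least 10 counts in every library. The transcripts of *Cnih2* and *Cacng8* are GC-rich, at 62.3% and 65.1%, and with the offsets the log2 fold changes were 0.25 (SE 0.11) and 0.18 (SE 0.23), below the fold-change threshold. Like *Grik5*, both were higher in saline males 1 and 2 (26.3 and 25.9 CPM for *Cnih2*, 7.00 and 7.77 CPM for *Cacng8*) than in saline male 3 (9.31 and 2.54 CPM). *Cnih2* was also the partner with the smallest p for the interaction, at -0.83 (SE 0.45, adjusted p = 0.985 in the edgeR QL test), and *Cacng8* for the difference of females and males, at -0.58 (SE 0.28, adjusted p = 0.734), and neither was called. Neither value was stable. *Cnih2* in the interaction was called with no filter (-0.85) and without saline male 3 (-1.19, adjusted p = 0.0126 in the edgeR QL test), and with the offsets it was -0.21 (SE 0.15). *Cacng8* in the difference of the sexes was called with the Wald test of DESeq2, total counts, and no filter (-0.60 each time) and without saline male 3 (-0.74), morphine female 1, morphine male 4, or morphine male 5. It was -0.50 and not called without the library labelled morphine male 6, and -0.04 with the offsets.

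Over the 12 libraries, with the means of the 4 groups removed, the genes whose log2 CPM followed *Gria2* most closely were *Zfand1*, *Nek1*, and *Zfp445*, each with a Pearson correlation of 0.99. Those that followed *Grik2* were *Mmgt1*, *9330182L06Rik*, and *Spred1*, also at 0.99 each. These values are descriptions over 12 libraries that differ in how their counts follow GC content, and the 6 genes have a GC content between 40.6% and 44.7%. After the offsets the correlation was 0.96 for *Zfand1*, 0.79 for *Nek1*, 0.70 for *Zfp445*, 0.92 for *Mmgt1*, -0.04 for *9330182L06Rik*, and 0.83 for *Spred1*. Among the members, *Gria4* and *Grik2* followed each other at 0.98 before the offsets and at -0.14 after them, while *Grik4* and *Grik5* were at 0.92 before and 0.82 after, and *Gria1* and *Gria3* at 0.73 and 0.83.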

How the data were processed

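Poly-A RNA from the brainstem of 12 mice was sequenced (100 bp, single-end, 1 lane for all 12 libraries). Demultiplexing by the authors used scruff, trimming used Trimmomatic, alignment to mm10 used STAR, and featureCounts summed reads over Ensembl GRCm38 exons. What was deposited is the raw counts per gene, with no normalization. The strand setting is not given in the sources used here, so overlapping antisense genes cannot be told apart. Groups came from the labels of treatment and sex. No label gives the dam, which the study names as a covariate. RNA from 1 mouse per library was measured, with 1 library per mouse. The p values therefore measure the spread between mice together with that between their libraries, which this design cannot separate.

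All 55418 symbols were matched to GENCODE M21, and 115 stand for more than 1 gene ID. Counts were tested by quasi-likelihood (QL) in edgeR 4.0.16 (R 4.3.3) across all genes that passed filterByExpr, after TMM normalization, with Benjamini-Hochberg adjustment over all tested genes. The sexes were fitted together with sex as a covariate, each sex alone, and together with an interaction. The standard error is the absolute log2 fold change divided by the square root of the F statistic, and intervals are 95%. Logs of CPM used a prior count of 2. RPKM is TMM-scaled CPM divided by the union of exons. The fits were checked on simulated data. There the calls were checked on genes drawn independently, with no relation to GC content within a library. That check therefore gives no error rate for the present libraries. Alternatives were the Wald test of DESeq2 1.42.0, exactTest, DESeq2's size factors, total counts, no filter, a filter of 10 counts per library, offsets for GC content and exon length by loess with span 0.5, a fit with no covariate, a replicate block, contrasts from the fit of 12 mice, p alone, the longest transcript as length, and leaving out each mouse. The offsets with 1 library left out were added after the data were seen. Every member was named, and of the partners those called or the 1 with the smallest p. The 9 members, the partner and marker lists, and the tests were chosen with earlier results of these data known.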

Additional observations from a re-analysis of the deposited data

How the results depend on the processing

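With the alternatives that used all mice of a comparison, 0 members were called in both sexes together, in females, and in males. The members called were 1 in the interaction with total counts (*Gria1*) or with no filter (*Grik5*), and 1 in the difference of the sexes with the Wald test of DESeq2, with total counts, or with no filter (*Grik5* each time). The adjusted p of a member was under 0.05 in no fit that kept saline male 3. Values close to 0 changed sign easily, and of the values whose sign changed only *Grik2* in males passed both thresholds, at 0.28 without saline male 3. The causes were not tested. Each member had at least 474 counts in every library.

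With no filter the calls over all genes were 754 in both sexes, 1094 in females, 985 in males, 1665 in the interaction, and 2321 for sex. With the offsets for GC content and exon length they were 1292 in males and 1172 in the interaction. In females the fit of 12 mice gave 218. With the offsets and without the library labelled morphine male 6 they were 1454 in males, 1251 in the interaction, and 450 for sex. With the offsets and without saline male 3 they were 384 in both sexes, 3498 in males, 2908 in the interaction (1 member, *Grik5*), and 1454 for sex.

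The sign changed with total counts in both sexes for *Gria4* (0.027), *Grik1* (0.012), and *Grik2* (0.027), in males for *Gria4* (0.073), *Grik1* (0.11), *Grik2* (0.10), and *Grik4* (0.098), in the interaction for *Gria4* (0.093), and for sex for *Grik1* (-0.0085). It changed for *Grik1* and sex with no filter (-0.0057), DESeq2 (-0.0081), and DESeq2's size factors (-0.0082), and for *Grik1* in males with DESeq2 (0.0015), its size factors (0.0013), and the fit of 12 mice (0.0087), which also gave *Grik2* 0.0011. With at least 10 counts in every library, *Gria4* in the interaction was at 0.0099. With the offsets it changed in both sexes for *Grik2* (0.0071), in females for *Gria4* (0.036) and *Grik2* (0.019), in the interaction for *Grik1* (-0.010) and *Grik2* (-0.025), and for sex for *Gria2* (-0.027), *Grik1* (-0.013), and *Grik3* (0.0039). With the offsets and without the library labelled morphine male 6 it changed in both sexes for *Gria1* (-0.0060) and *Gria4* (0.0003), in the interaction for *Grik2* (-0.071), and for sex for *Gria2* (-0.014), *Grik1* (-0.028), and *Cacng8* (0.0084). With the offsets and without saline male 3 it changed in both sexes for *Gria4* (0.014), *Grik1* (0.0088), *Grik2* (0.0017), and *Grik4* (-0.0072), in males for *Grik1* (0.071), in the interaction for *Grik2* (-0.037), and for sex for *Gria2* (-0.042), *Grik3* (0.0021), and *Cacng8* (0.026).

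Leaving out 1 mouse gave between 177 and 458 calls over all genes in both sexes, between 208 and 1482 in females, between 253 and 5341 in males, between 290 and 4695 in the interaction, and between 330 and 3947 for sex. The members called were between 0 and 1 in females (1 without morphine female 2), between 0 and 4 in males and in the interaction (4 without saline male 3), and between 0 and 3 for sex (3 without saline male 3, and 1 without morphine female 1 or morphine male 5). Over these fits the log2 values that changed sign ran in both sexes for *Gria2* from -0.042 to 0.15, *Gria3* from -0.047 to 0.11, *Gria1* from -0.014 to 0.049, *Grik5* from -0.35 to 0.048, *Gria4* from -0.078 to 0.058, *Grik1* from -0.093 to 0.026, *Grik2* from -0.089 to 0.081, *Grik3* from -0.016 to 0.13, and *Grik4* from -0.053 to 0.14. They ran in females for *Gria2* from -0.25 to 0.096, *Gria3* from -0.11 to 0.0021, *Gria4* from -0.069 to 0.015, and *Grik2* from -0.099 to 0.0027. They ran in males for *Gria2* from -0.031 to 0.48, *Gria3* from -0.050 to 0.38, *Grik4* from -0.23 to 0.14, *Gria4* from -0.18 to 0.20, *Grik1* from -0.14 to 0.20, *Grik2* from -0.17 to 0.28, and *Grik3* from -0.058 to 0.21. They ran in the interaction for *Grik1* from -0.026 to 0.25, *Grik2* from -0.099 to 0.30, *Grik4* from -0.38 to 0.043, *Gria4* from -0.13 to 0.19, and *Grik3* from -0.14 to 0.18. They ran for sex for *Gria2* from -0.075 to 0.15, and *Grik1* from -0.053 to 0.059.

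With the longest annotated transcript, mean RPKM was 23.5 for *Gria1*, 33.2 for *Gria2*, 26.6 for *Gria3*, 51.0 for *Gria4*, 9.49 for *Grik1*, and 8.92 for *Grik2*. The other 3 members, the values with total counts, and those without 1 mouse moved by less than 1 SD.

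The replicate numbers of the titles run from 1 to 6 in each treatment, and the same-numbered mice differed in sex in 6 of 6 pairs. The correlation of their deviations from the group means lay between -0.35 and 0.18. These deviations also carry differences between libraries, and no label names the dam. Whether the numbers pair litter mates therefore cannot be told from these values. With the replicate block, 483 genes were called for sex against 733 without it, 204 for morphine against 221, and 0 members were called in either comparison. Within a sex no paired analysis was possible because females share no numbers within their sex, nor males within theirs, and the block takes up the interaction.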
